A study of Mus musculus with 2 samples.

Results

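The CXC chemokines are small secreted proteins that attract leukocytes, and 7 of their genes were described here in the nucleoplasm of macrophages that had met a bacterial ligand before and met it again. The genes were taken by symbol and were Cxcl1, Cxcl2, Cxcl3, Cxcl9, Cxcl10, Cxcl11 and Cxcl16, 7 of the 55536 genes listed. Cxcl1, Cxcl2 and Cxcl3 formed the neutrophil group and Cxcl9, Cxcl10 and Cxcl11 the interferon-linked group. Cxcl16 stood in neither group.

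The study consisted of 2 libraries of 1 condition, replicates 1 and 2. Bone marrow-derived macrophages, primary cells grown out from marrow of C57BL/6J mice, were exposed to Lipid A at 100 ng/ml for 12 h, were left without it for 12 h after a wash, and received 100 ng/ml again for 30 min before RNA of the nucleoplasm was taken and depleted of ribosomal RNA. Lipid A is the part of lipopolysaccharide that activates Toll-like receptor 4. Sex and age were not collected, per the labels, and both libraries carry the same donor identifier under separate biosamples. The labels do not say if these were separate mice or cultures, and the spread between the libraries may be technical in part. No untreated sample, single exposure or other cell fraction was analysed here, so every value below is a level after the second exposure and none is a response to it.

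The group names follow the receptors. The neutrophil chemokines carry a glutamate-leucine-arginine stretch ahead of the CXC cysteines and act on Cxcr2 of neutrophils. Their transcription in macrophages is driven mainly by NF-kB, and their mRNA is short-lived because AU-rich elements in it recruit decay factors. The interferon-linked chemokines lack that stretch, act on Cxcr3 of activated T cells and natural killer cells, and depend on interferon-activated STAT and IRF factors, with NF-kB as a partner at Cxcl10. Cxcl16 is made as a transmembrane protein with a chemokine head, binds Cxcr6, takes up oxidised lipoprotein and is released by the proteases Adam10 and Adam17.

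The sequences just upstream of the genes are shown first because the groups are known for the factors that act there, NF-kB and the interferon-activated factors. All are RefSeq promoters of GRCm38.p6, trimmed to end ahead of the more upstream of the RefSeq and GENCODE start sites. The promoter table held 5 of the 7 genes, Cxcl1, Cxcl2, Cxcl3, Cxcl9 and Cxcl10. Capitals mark matches to the NF-kB consensus, the interferon response element core GAAANNGAA, the AP-1 site TGANTCA and the TATA box TATAAA, searched on both strands over 250 bases before the RefSeq start. The regions are chr5:90891141-90891240 (plus strand) for Cxcl1, chr5:90903771-90903870 (plus) for Cxcl2, chr5:90786001-90786100 (plus) for Cxcl3, chr5:92328080-92328279 (minus) for Cxcl9 and chr5:92348890-92349109 (minus) for Cxcl10.
Cxcl1: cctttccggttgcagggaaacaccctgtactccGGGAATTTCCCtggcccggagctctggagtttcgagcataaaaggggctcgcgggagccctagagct
Cxcl2: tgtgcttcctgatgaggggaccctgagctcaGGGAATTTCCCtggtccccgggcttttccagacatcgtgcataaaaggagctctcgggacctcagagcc
Cxcl3: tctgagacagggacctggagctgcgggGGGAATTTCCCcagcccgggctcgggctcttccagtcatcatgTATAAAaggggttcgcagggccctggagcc
Cxcl9: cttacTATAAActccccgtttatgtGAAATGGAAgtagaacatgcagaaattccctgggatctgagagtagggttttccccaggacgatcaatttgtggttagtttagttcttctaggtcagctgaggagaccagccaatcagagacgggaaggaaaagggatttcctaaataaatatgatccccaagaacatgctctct
Cxcl10: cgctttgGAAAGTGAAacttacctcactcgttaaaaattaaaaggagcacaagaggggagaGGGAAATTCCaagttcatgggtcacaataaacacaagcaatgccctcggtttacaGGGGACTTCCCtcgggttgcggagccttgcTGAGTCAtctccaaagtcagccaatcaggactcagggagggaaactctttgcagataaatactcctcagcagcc

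The longest run common to the 250-base windows of the 3 neutrophil genes was the 11 bases GGGAATTTCCC, which lie 71 bases before the RefSeq start in Cxcl1, 97 in Cxcl2 and 73 in Cxcl3. Each run holds a pair of overlapping NF-kB consensus matches, 1 on each strand. Of 32851 mouse promoters, 14 hold this run (0.0426%), and 3 of these 14 are the neutrophil genes. As the run was picked for being common to these 3 genes, their place among the 14 was fixed in advance. The NF-kB consensus as such was matched in 7.25% of the promoters. Cxcl10 has its own matches, 1 beginning 159 bases before the start and an overlapping pair ending 95 and 94 bases before it, while none was found in the window of Cxcl9. The interferon response element core lies 213 bases before the start of Cxcl10 and 175 before that of Cxcl9, and in 7.13% of all promoters. Cxcl10 also holds the AP-1 letters at 74 bases (6.75% of promoters), and TATAAA was found at 30 bases in Cxcl3 and at 195 in Cxcl9 (12.4%). The STAT element TTCNNNGAA was matched in none of the 5 windows and in 7.02% of all. These are letter matches and not measurements of binding.

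**Figure D1:**
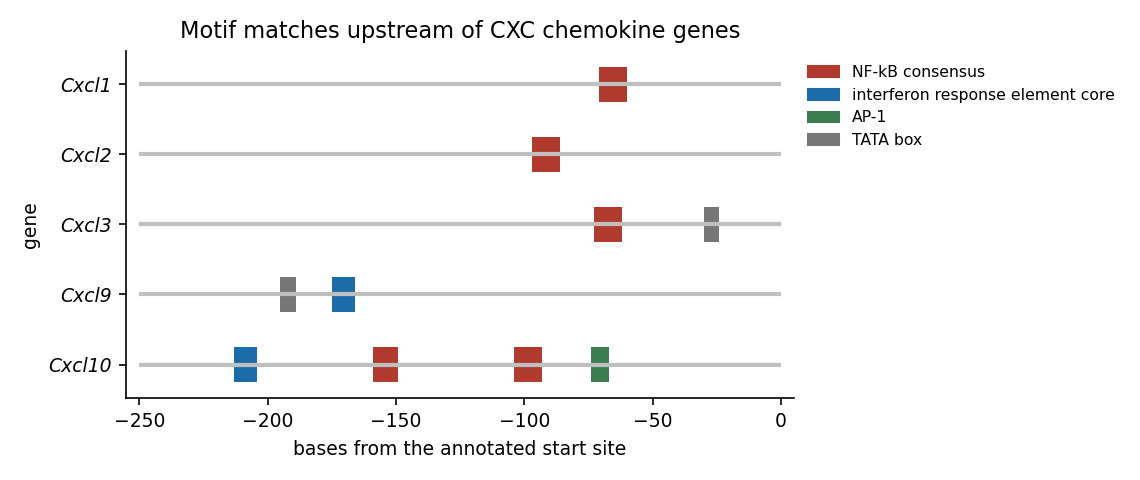
Positions of motif matches before the RefSeq start of 5 CXC chemokine genes, in bases on the x axis, with overlapping matches of 1 motif drawn as 1 block. The NF-kB block lies within 100 bases of the start in the 3 neutrophil genes, and interferon response element cores appear in Cxcl9 and Cxcl10.

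Levels split within each group far more than between the groups. Cxcl2 and Cxcl10 were among the most abundant protein-coding RNAs of the nucleoplasm, Cxcl1 and Cxcl16 were about an order of magnitude lower, and Cxcl11, Cxcl3 and Cxcl9 were low. TPM is an abundance adjusted for transcript length and is the scale on which genes are compared here. Each library's value is given, then the mean ± SD of both (n = 2).

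Cxcl2, the neutrophil chemokine also called MIP-2 (ENSMUSG00000058427.10, chr5:90903871-90905938, plus strand, mm10), stood at 367.1 TPM in replicate 1 and 494.9 in replicate 2, 431 ± 90.4. It ranked 37th and 32nd of 22015 nuclear-genome protein-coding genes in the respective libraries. Cxcl1, also called KC (ENSMUSG00000029380.11, chr5:90891241-90893115, plus strand), stood at 28.4 and 53.4 TPM, 40.9 ± 17.6. Cxcl3 (ENSMUSG00000029379.10, chr5:90786103-90789600, plus strand), the closest relative of Cxcl2 in sequence, stood at 0.40 and 0.32 TPM, 0.36 ± 0.057. It rested on 13 counts in replicate 1 (exact Poisson 95% interval 6.92 to 22.2) and 7 in replicate 2 (2.81 to 14.4). The level of Cxcl2 was 12.9 times that of Cxcl1 in replicate 1 and 9.28 times in replicate 2, and 918 and 1547 times that of Cxcl3. The order Cxcl2, Cxcl1, Cxcl3 was the same in both libraries with no overlap of values.

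Cxcl10, also called IP-10 (ENSMUSG00000034855.13, chr5:92346638-92348889, minus strand), stood at 463.6 TPM in replicate 1 and 337.6 in replicate 2, 401 ± 89.1, with ranks of 28 and 55. Cxcl11, also called I-TAC (ENSMUSG00000060183.6, chr5:92359544-92365485, minus strand), stood at 5.04 and 1.27 TPM, 3.16 ± 2.67. The annotation types Cxcl11 as a polymorphic pseudogene, a gene that is intact in some strains and disrupted in others. Cxcl9, also called MIG (ENSMUSG00000029417.9, chr5:92321347-92328079, minus strand), stood at 0.44 and 0.46 TPM, 0.45 ± 0.014, from 45 and 34 counts. The deposited credibility bounds of Cxcl9 were 0.338 to 1.27 TPM in replicate 1 and 0.347 to 1.51 in replicate 2, far wider than the difference between its libraries. Cxcl10 exceeded Cxcl11 by 92 times in replicate 1 and 266 times in replicate 2, and Cxcl9 by 1054 and 734 times. Here too the order of the 3 genes was the same in both libraries.

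Cxcl16 (ENSMUSG00000018920.11, chr11:70453983-70459984, minus strand) stood at 46.5 TPM in replicate 1 and 66.1 in replicate 2, 56.3 ± 13.9. It was above Cxcl1 in each library, 1.64 times in replicate 1 and 1.24 times in replicate 2, and their credibility bounds within a library did not overlap. Between libraries the values did overlap, as the lower value of Cxcl16 was below the higher value of Cxcl1. The order of Cxcl2 and Cxcl10 by gene TPM was reversed between the libraries. Cxcl9 lay above Cxcl3 in both libraries, but their credibility bounds overlapped within each library. The bounds lie around a posterior mean TPM, a second deposited estimate, and not around the TPM given here. By that estimate Cxcl9 stood at 0.72 in replicate 1 and 0.82 in replicate 2, and Cxcl3 at 0.42 and 0.35.

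Of the 7 genes, 2 reached 100 TPM in both libraries, against 1.15% of nuclear protein-coding genes, and 4 reached 10 TPM, against 15.5%. The 2 below 1 TPM in both libraries, Cxcl3 and Cxcl9, were with 55.3% of protein-coding genes. Cxcl3 lay at the 51.8th percentile in replicate 1 and the 49.8th in replicate 2, and Cxcl9 at the 52.3rd and 51.5th. Each group thus had 1 gene at the top and 1 in the middle of all listed protein-coding genes. That middle is near the floor, with a median of 0.27 TPM in replicate 1 and 0.33 in replicate 2. Of the 22015 genes, 7421 were at 0 in both libraries.

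**Figure D2:**
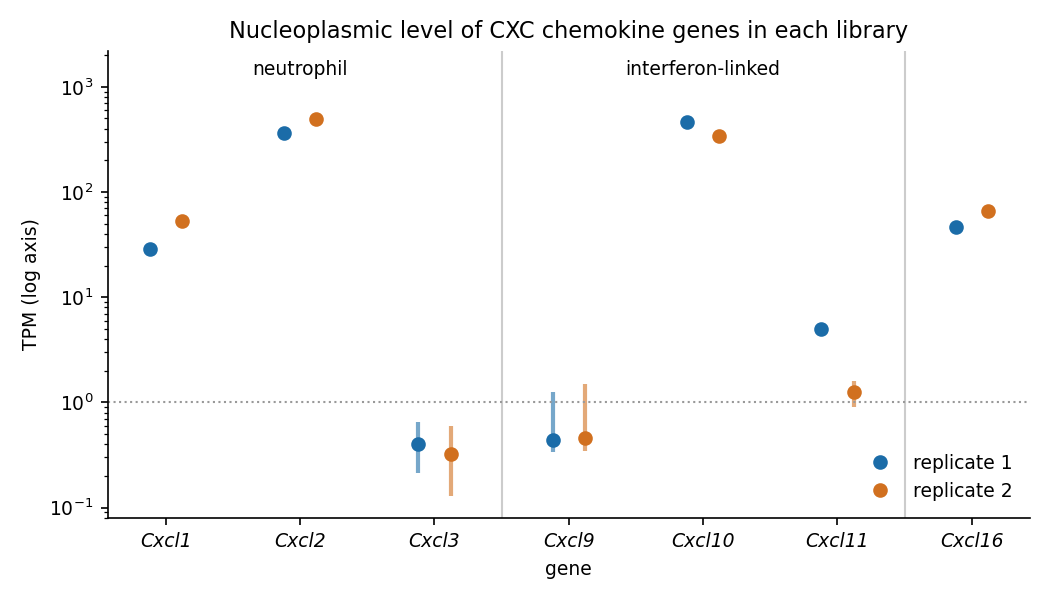
TPM on a log axis for the 7 genes in replicate 1 (blue) and replicate 2 (orange), with lines for the deposited credibility bounds where these are wider than the point and a dotted line at 1 TPM. The bounds lie around the deposited posterior mean TPM, so a point can lie off the centre of its line. Cxcl2 and Cxcl10 lie between 337.6 and 494.9 TPM, and Cxcl3 and Cxcl9 lie below 1 TPM.

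Summed TPM of the neutrophil group was 395.9 in replicate 1 and 548.6 in replicate 2, and that of the interferon-linked group 469.1 and 339.3. The group with the larger sum was therefore the interferon-linked one in replicate 1 and the neutrophil one in replicate 2. All 7 genes together came to 911.6 and 954 TPM, of which the neutrophil group held 43.4% and 57.5% and the interferon-linked group 51.5% and 35.6%. The ratio of Cxcl2 to Cxcl10 was 0.792 in replicate 1 and 1.47 in replicate 2. These gene values include transcripts annotated as retained introns. Such transcripts held 61.0% and 54.2% of the TPM of Cxcl2 and 32.4% and 19.8% of that of Cxcl10. The coding transcript Cxcl10-201 (308.2 and 269.9 TPM) was above Cxcl2-201 (128.1 and 198.3 TPM) in both libraries. Group sums over coding transcripts alone were not computed. By the mean of log2(TPM + 0.1), which gives each gene equal weight, the neutrophil group was higher by 0.67 in replicate 1 and 1.81 in replicate 2, 1.24 ± 0.80. By the log2 of the summed TPM the difference was -0.24 and 0.69. The sign in replicate 1 thus depended on whether genes were weighted equally or by their abundance. Without replicate 1 the ratio of Cxcl2 to Cxcl10 is 1.47, and without replicate 2 it is 0.792.

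The gap between the libraries was different in direction for the abundant genes of each group. Expected counts of the alignment-based table came to 23845991 over all genes in replicate 1 and 20675294 in replicate 2. These counts, scaled with TMM factors for library size, were compared as replicate 2 over replicate 1 in the 9675 genes whose mean count reached 100. The intervals that follow are 95% counting intervals of 1 library against the other and hold no biological spread. Cxcl1 had 1269 and 1572 counts, a log2 ratio of 0.51 (0.40 to 0.61). Cxcl2 had 15507 and 15065 counts, a log2 ratio of 0.16 (0.12 to 0.19). Cxcl10 had 17611 and 9311 counts, a log2 ratio of -0.72 (-0.76 to -0.69). Each of these genes differed between the libraries by more than its counting error, with Cxcl1 and Cxcl2 higher in replicate 2 and Cxcl10 lower. Such differences were common. By the same measure 35.4% of 8637 protein-coding genes were higher in replicate 2 and 29.5% were lower.

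Cxcl11 had 296 counts in replicate 1 and 51 in replicate 2, a log2 ratio of -2.33 (-2.80 to -1.91), or 5.02-fold lower in replicate 2. It was the only 1 of the 5 genes tested past 2-fold, where 3.49% of all tested genes were past 2-fold and 1.82% were past 2-fold lower. The ratio of Cxcl11 lay at the 0.145th percentile of the tested genes and that of Cxcl10 at the 4.85th, whereas Cxcl2 lay at the 64.5th, Cxcl16 at the 75.7th and Cxcl1 at the 89.6th. The central 95% of tested genes ran from -0.90 to 0.87. Cxcl16 had 3765 and 3978 counts, a log2 ratio of 0.28 (0.21 to 0.34). Cxcl3 and Cxcl9 were under the count minimum, and their intervals, -2.26 to 0.74 and -0.89 to 0.47, include no difference.

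Over all 3 genes of each group the median log2 ratio was 0.16 in the neutrophil group and -0.72 in the interferon-linked group, a difference of 0.88. Over the 2 genes of each group that reached the count minimum the medians were 0.33 and -1.53, a difference of 1.86, against a median of 0.02 over all tested genes. The read-based table, a second quantification of the same libraries, gave 0.54 and -0.71 over all 3 genes of each group. Its log2 ratio was 0.54 for Cxcl1, 0.19 for Cxcl2, -0.71 for Cxcl10 and -1.66 for Cxcl11, so that Cxcl11 was past 2-fold lower in both tables. For Cxcl3 it gave 30.2 and 68.3 estimated counts and a log2 ratio of 1.13, and for Cxcl9 0.24, both of the opposite sign to the other table. TPM ratios carry a further shift, since nuclear protein-coding genes had a median log2 TPM ratio of 0.28. Relative to that shift the log2 TPM ratios of 0.91 for Cxcl1, 0.43 for Cxcl2 and -0.46 for Cxcl10 keep the signs given above.

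**Figure D3:**
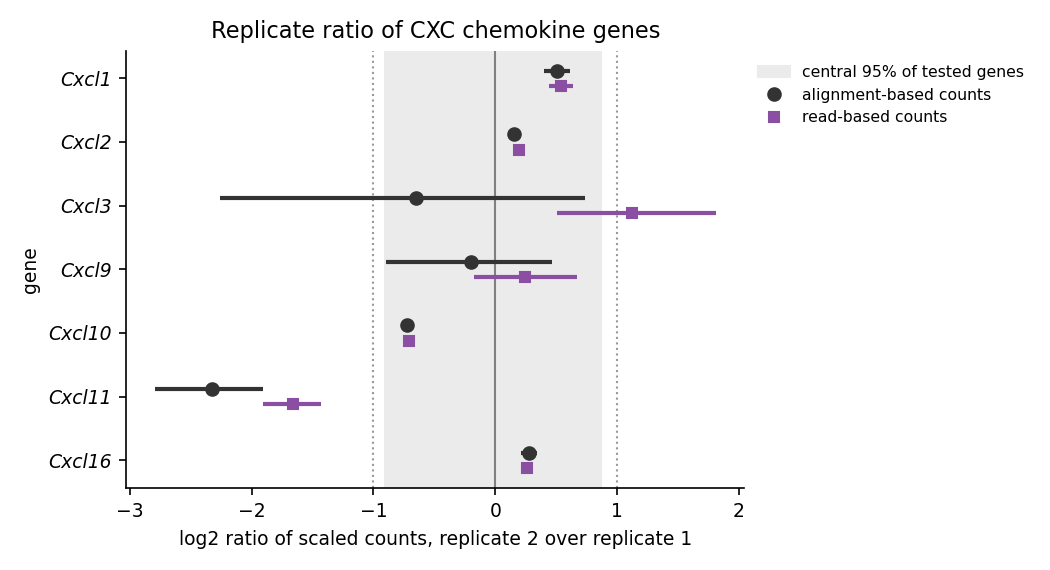
Log2 ratio of scaled counts, replicate 2 over replicate 1, for the 7 genes from the alignment-based table (circles) and the read-based table (squares), with 95% counting intervals, the central 95% of tested genes in grey and dotted lines at 2-fold. Cxcl11 lies beyond the grey band in both tables, Cxcl10 lies at its lower side, and Cxcl3 changes side between the tables.

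Among 17 listed ligands, receptors, kinases and factors of the interferon arm, 15 had enough counts for a ratio. In replicate 2, 9 of these 15 were lower and 3 higher by more than their counting interval, and the intervals of the other 3 (Ifnar1, Jak1 and Jak2) included 0. Of all 8637 protein-coding genes with a ratio, 29.5% were lower and 35.4% higher in this sense. These shares rise with the counts of a gene, so they are a rough measure for a list. The median log2 ratio of the list was -0.36, against 0.03 over protein-coding genes. Irf7, the factor that amplifies type I interferon, was the most abundant at 398.1 and 261.4 TPM, a log2 ratio of -0.86. Socs1, the feedback inhibitor of JAK kinases, was the only 1 of the 15 past 2-fold, at 278 and 83 counts and a log2 ratio of -1.54. Ifnb1, the type I interferon that macrophages release, had 72 and 10 counts, too few for the ratio. Ifng, the ligand after which Cxcl9 was named a monokine induced by interferon-gamma, was the lowest of the list with 0 and 5 counts. In the NF-kB and Toll-like receptor arm 10 of 16 genes were lower and 5 higher by more than their counting interval, against the same 29.5% and 35.4%, and the interval of Ticam1 included 0. The median log2 ratio was -0.19. The highest mean was that of Nfkbia, the NF-kB inhibitor, at 270.8 and 226.2 TPM, although Tnfaip3 and Cd14 exceeded it in replicate 2. The lowest was that of Ticam1, the adaptor TRIF, at 4.08 and 5.66. Ly96, the co-receptor MD-2, was past 2-fold higher at 111 and 232 counts.

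Markers of other cell types were low, apart from the endothelial genes Vwf and Kdr and the platelet gene Pf4. All 8 macrophage markers reached 10 TPM in each library and summed to 2097 and 3526 TPM. Of 8 neutrophil markers, 6 were below 1 TPM in both and Ly6g, Elane and Retnlg were at 0, with a sum of 1.63 and 2.73 TPM. All 8 markers of T and natural killer cells were below 1 TPM, 6 of them at 0 (Cd3e, Cd3g, Cd2, Ncr1, Klrb1c and Cd8a), with sums of 0.06 and 0.08. B cell markers (5 of 5 below 1 TPM), fibroblast markers (5 of 5), dendritic cell markers (4 of 5) and platelet markers (5 of 6, with Pf4 as the exception) were low as well. The 5 endothelial markers summed to 24.96 TPM in replicate 1 and 19.7 in replicate 2, almost all of it Vwf and Kdr. Tek was at 0 and Cdh5 below 1 TPM. Vwf and Kdr were lower in replicate 2 by more than their counting interval, as were 29.5% of protein-coding genes, while Pf4 was higher. RNA input was 1 µg in replicate 1 and 500 ng in replicate 2, and mitochondrial genes took 2.91% and 6.91% of counts. The part of the endothelial markers, the input and the mitochondrial share in the ratios was not tested. In bulk RNA, fewer cells that make a transcript and less of it per cell cannot be told apart.

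Much of the signal of the abundant chemokines was assigned to models of the unspliced gene. The annotation holds a single-exon model across the whole of Cxcl1, Cxcl2, Cxcl3 and Cxcl10 (Cxcl1-202, Cxcl2-203, Cxcl3-202 and ENSMUST00000201176.1), typed as a retained intron, that covers 100% of the introns of the coding transcript. A read inside these introns can be assigned only to a model that covers it. Cxcl1-202 took 66.4% of the counts of Cxcl1 in replicate 1 and 55.4% in replicate 2. Cxcl2-203 took 61.9% and 55.4% of the counts of Cxcl2. The whole-gene model of Cxcl10 took 38.4% and 28.4% of the counts of Cxcl10. Cxcl1 and Cxcl2 were thus above Cxcl10 in each library.

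Counting all retained-intron models, 2 of 4 chemokine genes with such a model and enough counts, Cxcl1 and Cxcl2, had over 50% of their counts there in both libraries, against 8.24% of 5619 genes. Few genes with enough counts, however, have a model of the whole unspliced gene. Such a model and a mean count of 100 or more were found in 26 protein-coding genes, Cxcl1, Cxcl2 and Cxcl10 among them. In these 26, a comparison chosen after the data had been seen, 34.6% had over 50% of counts in that model in both libraries. The median share was 42.1% in replicate 1 and 35.2% in replicate 2. Cxcl1 lay at the 80.8th and 69.2nd percentile of these 26, Cxcl2 at the 65.4th in both libraries and Cxcl10 at the 38.5th in both. The share was lower in replicate 2 in 73.1% of the 26 genes, and in Cxcl1, Cxcl2 and Cxcl10. Cxcl9, Cxcl11 and Cxcl16 have no whole-gene model, so reads in most of their introns have no transcript to be counted in, and a comparison of all 7 genes on this measure was not possible.

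Per molecule rather than per read, the unspliced model of Cxcl2 stood at 134.7 TPM in replicate 1 and 162.5 in replicate 2, beside 128.1 and 198.3 for the coding transcript Cxcl2-201. The ratio of unspliced to coding TPM was 1.05 and 0.819 for Cxcl2, 0.870 and 0.552 for Cxcl1, and 0.282 and 0.176 for Cxcl10. About 1 molecule of the whole-gene model per molecule of Cxcl2-201 was therefore estimated. Fewer were estimated per molecule of Cxcl10-201, with no overlap between Cxcl1 or Cxcl2 and Cxcl10. The further coding transcripts Cxcl2-202 (15.1 and 28.4 TPM) and Cxcl10-202 (5.23 and 1.06 TPM) are left out of these ratios. They cover 78.16% and 36.4% of the introns of the respective coding transcript. Also left out are shorter retained-intron models, 1 of Cxcl2 (89.2 and 105.7 TPM) and Cxcl10-203 (63.1 and 19.3 TPM). The ratios therefore do not count all intron-holding RNA of Cxcl2 and Cxcl10. The leading transcript of Cxcl2 by TPM was the unspliced Cxcl2-203 in replicate 1, with 36.7% of the gene's TPM, and the coding Cxcl2-201 in replicate 2, with 40.1%. The coding transcript led in both libraries for the other 6 genes, with shares of 53.5% and 64.4% for Cxcl1-201, 66.5% and 79.9% for Cxcl10-201 and 67% and 76.3% for Cxcl16-201.

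**Figure D4:**
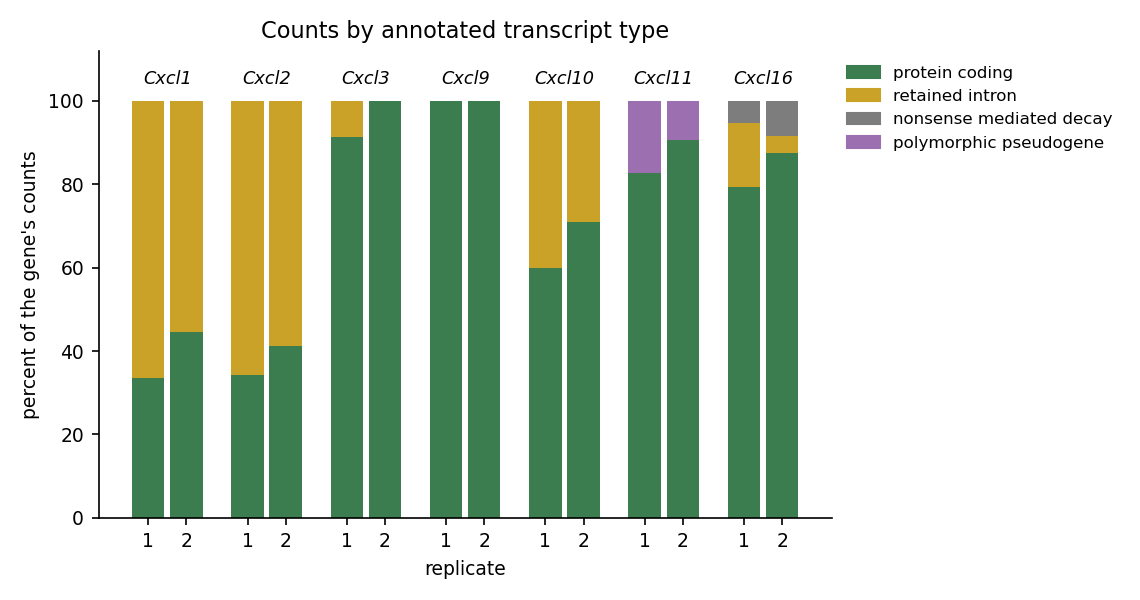
Percent of each gene's expected counts by annotated transcript type, in replicates 1 and 2. Retained-intron models take 66.4% and 55.4% of Cxcl1, 65.7% and 58.8% of Cxcl2 and 40.0% and 29.2% of Cxcl10, and none of Cxcl9, whose only such model had 0 counts.

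Spliced and unspliced RNA of Cxcl10 were both lower in replicate 2, while for Cxcl2 the coding transcript was higher there and the interval of the unspliced model included 0. For Cxcl10 the log2 ratio of replicate 2 over 1 was -1.15 in the unspliced model (-1.22 to -1.09) and -0.46 in the coding transcript (-0.50 to -0.41). For Cxcl2 it was -0.01 in the unspliced model (-0.05 to 0.04) and 0.36 in the coding transcript (0.31 to 0.42). For Cxcl1 it was 0.24 in the unspliced model (0.11 to 0.38) and 0.92 in the coding transcript (0.74 to 1.09). In each of these 3 genes the unspliced ratio was the lower one. Cxcl3 had too few counts in the alignment-based table for this comparison, and in the read-based table its order was the opposite, at 1.57 (0.87 to 2.42) in the unspliced model and -0.82 (-2.52 to 0.83) in the coding transcript. The read-based table gave -0.97 and -0.49 for Cxcl10, -0.01 and 0.44 for Cxcl2 and 0.27 and 0.96 for Cxcl1. These counting intervals leave out the error of dividing reads among transcripts.

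**Figure D5:**
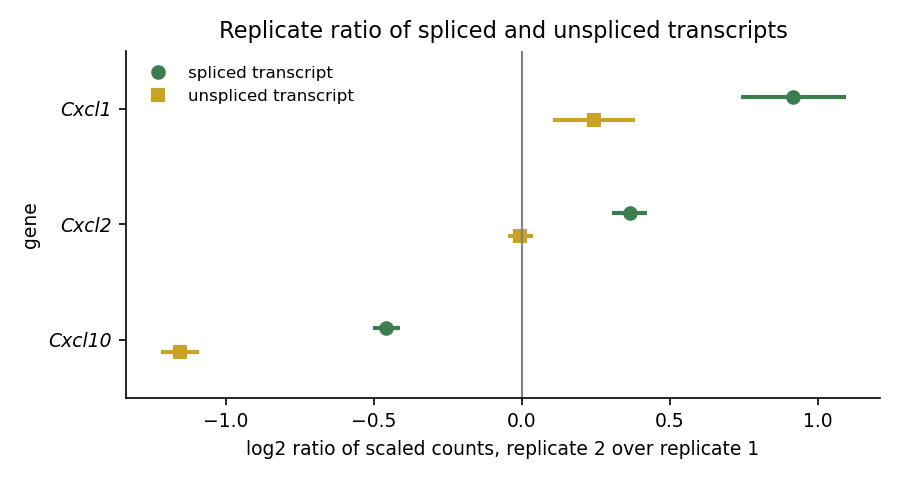
Log2 ratio of scaled counts, replicate 2 over replicate 1, for the coding transcript (circles) and the whole-gene unspliced model (squares) of Cxcl1, Cxcl2 and Cxcl10, with 95% counting intervals. The unspliced ratio lies below the spliced one in each of the 3 genes drawn, and for Cxcl10 both are below 0.

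The transcript division of the weaker genes was less certain. The unspliced model of Cxcl3 took 8.77% and 0% of its alignment-based counts and 66.7% and 91.7% of its read-based ones. The retained-intron model Cxcl16-203, which covers 9.75% of the introns, held 15.2% and 4.17% of the counts of Cxcl16, against 33.0% and 16.7% in the read-based table. In Cxcl11 the longer pseudogene-typed transcript Cxcl11-202 held 17.2% and 9.31%, and the coding Cxcl11-201 82.7% and 90.7%.

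The 3′ untranslated regions of the 3 neutrophil genes hold more AU-rich pentamers, the letters ATTTA, than those of the other 4 genes. The decay factor Zfp36 (tristetraprolin) is known to bind elements in which such pentamers overlap, as in ATTTATTTA. The densest 30-base window of each neutrophil gene and of Cxcl10 is shown from the GENCODE M21 transcript, with the pentamers in capitals. They lie at chr5:90892607-90892636 for Cxcl1, chr5:90905328-90905357 for Cxcl2, chr5:90787636-90787665 for Cxcl3 (plus strand) and chr5:92346936-92346965 for Cxcl10 (minus strand).
Cxcl1: tcctATTTATTTAtgtATTTATTTAttcca
Cxcl2: ATTTATTTAtctatgtATTTATTTATTTAt
Cxcl3: gcatcttATTTAatgtttATTTAatatcaa
Cxcl10: gtaagactacaaATTTAagtttgtaaggac

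Over the whole 3′ region, Cxcl2 has 11 pentamers in 734 bases, Cxcl1 has 7 in 592 and Cxcl3 has 5 in 645. Cxcl9 has 3 in 2452 bases, Cxcl10 has 2 in 729, Cxcl16 has 2 in 1421 and Cxcl11 has 1 in 1218. The median over 20622 protein-coding genes was 1. ATTTATTTA occurs 4 times in Cxcl2 and 2 times in Cxcl1, in none of the other 5 genes, and in 5.48% of all genes. These are features of the reference, and RNA decay was not measured. Of 10 listed genes of mRNA decay and stability, 8 were higher and 1 lower in replicate 2 by more than their counting interval, against 35.4% and 29.5% of protein-coding genes. The interval of Traf3ip2 included 0. The median log2 ratio was 0.20, against 0.03 over protein-coding genes. Zfp36 itself was the highest of them, at 316.4 and 430.9 TPM, and Traf3ip2, the adaptor Act1 through which interleukin-17 stabilises Cxcl1 mRNA, the lowest at 2.61 and 3.15.

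The 6 contrasted genes lie on chromosome 5 in a pair of clusters 1415 kb apart, and Cxcl16 lies alone on chromosome 11. Cxcl1 and Cxcl2 are 10.8 kb apart and Cxcl3 is 102 kb from Cxcl1. Among the 5 other protein-coding genes within 100 kb of the neutrophil cluster, Cxcl5 and Cxcl15 were at 0 in both libraries, Ppbp was at 0.15 and 0.17 TPM, Mthfd2l, a mitochondrial folate enzyme, at 2.26 and 3.16, and Pf4, the platelet factor, at 15.4 and 26.9. Of these 5, only Pf4 and Mthfd2l were above 1 TPM. Cxcl9, Cxcl10 and Cxcl11 follow each other at 18.6 and 10.7 kb, and the 5 neighbours above 1 TPM (Naaa, Sdad1, Art3, Nup54 and Scarb2) reached a mean of at most 24.3 TPM. Around Cxcl16, 6 of 10 protein-coding neighbours were above 1 TPM, led by Arrb2 at a mean of 113.

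Some of the values could include reads of other genes. Cxcl10 and Cxcl11 lie within Art3 on the opposite strand, and Cxcl11 also overlaps the processed pseudogene Gm2673, with which it shares 1533 of its 3792 distinct stretches of 50 bases. No source used here states the strand setting, so the 322 and 146 counts of Art3, which were lower in replicate 2 like those of Cxcl10 and Cxcl11, cannot be told apart from reads of these genes. Gm2673 had no counts in the alignment-based table and 0 and 45.7 in the read-based one. Cxcl16 overlaps Zmynd15 over 552 bases, with 544 and 345 counts listed for the latter. Coding sequences of Cxcl2 and Cxcl3 are 89.7% identical, those of Cxcl1 and Cxcl2 78.8% and those of Cxcl1 and Cxcl3 75.7%, against 53.3% to 58.4% among Cxcl9, Cxcl10 and Cxcl11. Pairs across the groups had 52.33% to 61.45%, so the interferon-linked genes were no more alike than genes of different groups. Cxcl3 shares 154 of its 3587 stretches of 50 bases with another gene, so that its low counts are uncertain in that part, and Cxcl1 shares none.

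The rest of the family was nearly silent. Of 8 other CXC ligands, Pf4 was the only 1 above 1 TPM, and Cxcl5, Cxcl13, Cxcl15 and Cxcl17 were at 0 in both libraries, which allows up to 3 counts, or 0.126 and 0.145 CPM, counts scaled by library size. Ppbp, Cxcl12 and Cxcl14 lay between 0 and 0.17 TPM. The receptor of the neutrophil chemokines, Cxcr2, had 0 counts in both libraries, as did Cxcr1, Ackr1, Ackr2 and Ackr3. Cxcr4, the receptor of Cxcl12, stood at 3.16 and 6.42 TPM and Cxcr6, the receptor of Cxcl16, at 2.86 and 2.77. Cxcr3 and Cxcr5 lay between 0.02 and 1.07 TPM. Of 9 genes for processing and binding of chemokines, 4 were at 10 TPM or more, the highest being Sdc4, a heparan sulphate carrier, at 115.1 and 137.7 TPM and the lowest Mmp9 at 0.04 and 0.15.

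The protein-coding genes closest to Cxcl2 in log2 level over the 2 libraries were Ctsz, Lgals3bp and Tapbp, at distances of 0.08, 0.16 and 0.23. Those closest to Cxcl10 were Vmp1, Tcirg1 and Apoe, at 0.03, 0.31 and 0.36. With 2 libraries this likeness is one of level and of a single difference.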

How the data were processed

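Total RNA of the nucleoplasm was measured in 2 libraries of 1 group. Per the file headers, the deposited tables are on mm10 with GENCODE M21. Aligner, quantifier and strand setting were not given in the sources used here. In the authors' files, gene and transcript tables hold expected counts, TPM, FPKM and credibility bounds (a signal on the TPM scale), derived from alignments, and the percent of TPM per transcript. The other deposited transcript table, derived from reads, holds estimated counts and TPM, which were summed per gene.

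Expected counts were rounded to whole numbers and came to 23845991 and 20675294 over genes (33095133 and 33056084 read-based). Counts of the libraries differed far beyond sampling noise (chi-square of 98.1 per gene over 16677 genes). Scaling used TMM factors of edgeR 4.0.16, with DESeq2 1.42.0 size factors as an alternative, and log2 ratios a prior count of 0.5. Intervals are exact Clopper-Pearson or Poisson at 95% and cover counting error only. With 1 group, no p-value is given. Ratio calculations were tested on simulated data.

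The genes and lists were chosen with earlier results of these data known. Named genes were all 7 chemokines, relatives and neighbours at a mean of 1 TPM or more, the 3 nearest in level to the top gene of each group, and the highest and lowest of each list. Socs1, Ly96, Ifnb1, Tnfaip3, Cd14, Ifnar1, Jak1, Jak2, Ppbp among the neighbours, Vwf, Kdr and markers at 0 were named after their values were seen. Coding sequences were compared in place of proteins. R 4.3.3 and Python 3.11.15 were used, the latter with scipy 1.17.1, biopython 1.88, pandas 2.3.3, numpy 2.4.6 and matplotlib 3.10.9.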

Additional observations from a re-analysis of the deposited data

How the results depend on the processing

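No paired analysis was possible because the study has 1 group. The group difference in mean log2 level (1.24) ranged from 0.67 to 1.81 with 1 library left out. It was 3.88 by the median of the genes and 0.22 by the log2 of summed TPM, and stayed above 0 in the pseudocount, FPKM and read-based alternatives. The group difference in median log2 replicate ratio (0.88) was 1.25 in the read-based table, an alternative added after seeing the data, where Cxcl1 in place of Cxcl2 is the neutrophil median, and 1.86 over the genes that reach the count minimum, also added later. The log2 ratio of Cxcl3 turned to 1.13 in the read-based table, and that of Cxcl9 to 0.24 there and 0.064 by TPM. The cause was not tested. The 7 ratios kept their sign under DESeq2 size factors, library size and other prior counts.

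Genes past 2-fold numbered 338, and 1315 at a mean count of 10, 6347 with no filter and 707 read-based. The lower filters admit genes with few counts. Protein-coding genes at 100 TPM in both libraries numbered 253, against 123 read-based and 282 to 329 in single libraries. At 10 and 1 TPM they numbered 3423 and 9207. The level moved by more than the SD in 6 of 7 genes in the read-based table, lower in 5, and in all 7 when TPM was rescaled over protein-coding genes. With 2 libraries, a single one always lies within 1 SD of their mean, so leaving 1 out says nothing about the stability of levels.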
